A study of Mus musculus with 16 samples.

Results

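The genes described here make up the podocyte and the glomerular filter. They were taken by symbol from a list of 30 names, and all 30 were present among the 28971 genes of the count table used. The label could not be checked by cell type, since the RNA came from whole kidneys. The podocyte-defining genes Nphs1, Synpo, Wt1, Ptpro, Lmx1b and Foxc2 were counted in all 7 libraries, with at least 102 reads each. Such counts do not show from which cells the RNA of a member came. Because the RNA is bulk RNA, fewer podocytes and less RNA per podocyte cannot be told apart in any value below.

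The study deleted Hes1, a transcriptional repressor downstream of Notch receptors, and its title names the cell types of the kidney collecting duct as its subject. Mutant mice, called Hes1 cKO (conditional knockout), were Hes1 f/f, that is floxed on both Hes1 alleles, with the doxycycline-dependent activator Pax8->rtTA and TRE->Cre. Controls were their littermates, labelled wild type. All mice, controls included, received 1 mg/mL doxycycline for 1 week in water with 5% sucrose, starting at 3 weeks of age, and total RNA of whole kidney was sequenced as 150 bp read pairs on an Illumina NovaSeq. Titles name 7 Hes1 cKO and 9 control kidneys (the series text gives these numbers the other way round), of which 3 Hes1 cKO and 4 control libraries could be used. The labels give 4 female and 3 male Hes1 cKO kidneys, and 3 female and 6 male control kidneys. The numbers 1 to 3 and 1 to 4 used below only name columns of the table, which carry no sex and match no single title. Nothing in the labels ties a library to its own litter, so p-values measure the spread between these libraries. The Pax8 promoter drives the activator in tubule and collecting duct epithelium, and whether podocytes lost Hes1 was not measured.

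Podocytes are epithelial cells that wrap the capillaries of the glomerulus with interlocking foot processes. Neighbouring foot processes are bridged by the slit diaphragm, a sheet of nephrin and related adhesion proteins tied to actin. Between podocyte and endothelium lies a basement membrane of laminin-521 and type IV collagen, and podocytes also secrete VEGF-A, which the capillary endothelium needs. Mutations in many of these genes cause proteinuria in people and mice.

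The libraries held 16973931 to 20420422 counts, of which the 30 genes took 0.339% to 0.391%. Levels are given as CPM, the usual depth-scaled read count, here with TMM library sizes. Hes1 ranged from 17.2 to 19.8 CPM over the mutant libraries, below all controls (42.8 to 67.6 CPM). Xist was high, at 333 to 367 CPM, in 3 libraries (Hes1 cKO 3, control 3 and control 4) and at most 0.371 CPM elsewhere. Ddx3y, a Y chromosome gene, had at most 1 read in those 3 libraries and 661 to 1249 reads elsewhere. By these genes both groups mix libraries with the female and the male pattern, and Hes1 cKO 3 is the only mutant with the female pattern.

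Among the filter genes no difference between Hes1 cKO and control was called. The groups were tested with edgeR's quasi-likelihood method over the 15615 genes that passed a filter on low counts, and a gene was called at a Benjamini-Hochberg adjusted p under 0.05. Of the 30 genes, 29 passed the filter and 0 were called, where 53 of all tested genes (0.339%) were. DESeq2's Wald test and limma-voom also called 0 of the 29. The lowest adjusted p of edgeR among them was 0.497, for Myo1e. At an unadjusted p under 0.05 there were 5 members, 3 higher in Hes1 cKO (3.34% of all tested genes were) and 2 lower (2.61% of all). Their log2 fold changes spanned -0.34 (Sema3g) to 0.29 (Thsd7a), with a median of -0.02 over the 29 genes and of -0.01 over all tested genes. Of the 29, 13 were above 0 and 16 below, where 48.4% of all tested genes were above 0. The data bound the differences as well: all 29 of the 95% intervals lay within 1 of 0 on the log2 scale, with the farthest ends at -0.67 (Sema3g) and 0.72 (Tcf21), and 21 of them lay within 0.5 of 0.

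**Figure D1:**
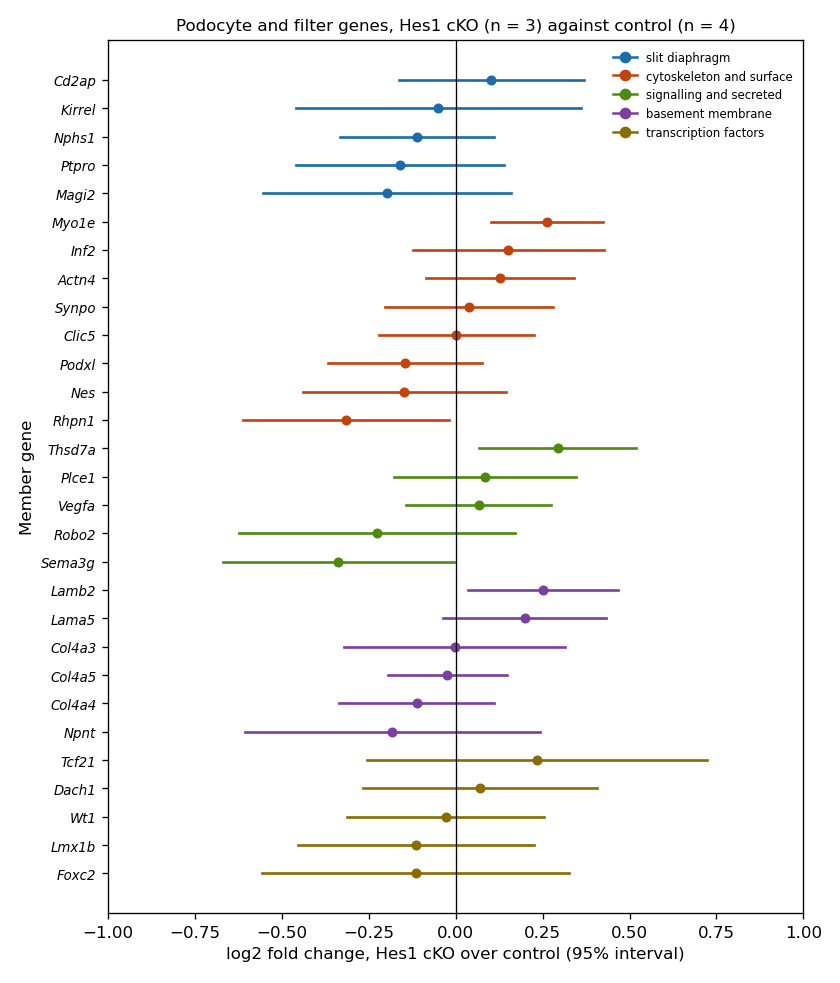
Log2 fold change of Hes1 cKO over control (x axis) for the 29 tested genes (y axis), coloured by role, with points for the edgeR estimate and lines for its 95% interval. All points lie between -0.34 and 0.29, and the intervals of Myo1e, Thsd7a, Lamb2, Rhpn1 and Sema3g leave out 0 before any adjustment for the number of genes.

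In 3 members, Myo1e, Thsd7a and Lamb2, every Hes1 cKO library lay above every control library, as in 3.71% of all tested genes. No member had every Hes1 cKO library below every control, as 3.29% of all tested genes did. The promoters of these 3 genes are printed because they are the members whose groups stood apart, and that of Col4a4 because it is shared with Col4a3. Each is the part of the RefSeq promoter window (GRCm38.p6) upstream of the start that overlaps no annotated exon, written 5′ to 3′ on the gene's strand. Capitals mark matches on either strand to 2 motifs bound by Hes1, the N-box CACNAG and the class C E-box CACGNG, which share the letters CACGAG.
Myo1e, chr9:70207100-70207349, plus strand: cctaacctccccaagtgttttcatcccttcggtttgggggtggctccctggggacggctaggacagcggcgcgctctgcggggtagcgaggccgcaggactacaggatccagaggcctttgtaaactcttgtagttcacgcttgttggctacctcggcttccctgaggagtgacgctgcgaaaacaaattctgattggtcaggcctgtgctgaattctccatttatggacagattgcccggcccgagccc
Thsd7a, chr6:12749411-12749503, minus strand: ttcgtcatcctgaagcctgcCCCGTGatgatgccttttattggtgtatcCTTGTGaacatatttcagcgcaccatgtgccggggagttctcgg
Lamb2, chr9:108479612-108479735, plus strand: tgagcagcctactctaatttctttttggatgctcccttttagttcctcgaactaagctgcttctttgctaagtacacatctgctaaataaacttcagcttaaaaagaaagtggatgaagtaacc
Col4a4, chr1:82586850-82586920, minus strand: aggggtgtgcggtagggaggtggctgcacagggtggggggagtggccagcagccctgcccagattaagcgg
The Thsd7a stretch of 93 bases held 1 match to each motif, and the other 3 stretches, of 250, 124 and 71 bases, held none. Promoter windows of 300 bases were found for 24 of the 30 genes, some with more than 1 start. Among their 30 windows 13 (43.3%) held an N-box, against 42.5% of all 32851 windows, and 13 (43.3%) held a class C E-box, against 27.5% of all. These are counts of windows and not of genes. The windows of Inf2 overlap and hold the same CACGTG, and Npnt, Magi2 and Robo2 each had more than 1 window with a class C match. The median GC content was 59.7% in the members' windows and 52.7% in all; its part in these shares was not tested. A match in these letters is not a binding site, and no binding was measured.

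The slit diaphragm genes come first. Nphs1 (ENSMUSG00000006649, chr7:30458315-30487223 in GRCm38) encodes nephrin, the adhesion protein that spans the slit. It was counted at 33.6, 29.9 and 32.9 CPM in Hes1 cKO 1 to 3, with 38.8, 33.3, 35.0 and 31.8 CPM in control 1 to 4. Control 1 was highest and Hes1 cKO 2 lowest, and the groups overlapped. Mutants averaged 32.1 ± 1.96 CPM (SD, n = 3) and controls 34.7 ± 2.99 CPM (SD, n = 4). The log2 fold change was -0.11 (95% interval -0.33 to 0.11, edgeR adjusted p 0.962). Its annotated antisense partner Nphs1os covers 9.02% of its exonic bases, and since no strand setting is given, reads of that stretch cannot be assigned to a strand.

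Ptpro (ENSMUSG00000030223), a receptor tyrosine phosphatase of the podocyte's apical surface, was at 28.7, 27.8 and 19.8 CPM in Hes1 cKO 1 to 3 and at 28.0, 29.8, 27.2 and 28.7 CPM in control 1 to 4. The controls lay close together and a single mutant library, Hes1 cKO 3, lay below them all. The log2 fold change was -0.16 (95% interval -0.46 to 0.14, edgeR adjusted p 0.959), and without Hes1 cKO 3 it was -0.01. Kirrel, whose product Neph1 pairs with nephrin, showed the same low library: 15.9 CPM in Hes1 cKO 3, against 25.9 and 22.6 CPM in the other mutants and 19.0 to 26.8 CPM in control (log2 fold change -0.05, edgeR adjusted p 0.992). Cd2ap, the adaptor that links nephrin to actin, was at 143 to 159 CPM in Hes1 cKO and 113 to 158 CPM in control, with the low value in control 1 (log2 fold change 0.10, edgeR adjusted p 0.974). Magi2, a scaffold protein at the slit, was the least abundant of the 5, at 6.82 to 9.40 CPM against 8.01 to 9.72 CPM (log2 fold change -0.20, edgeR adjusted p 0.959). A further row with the symbol Magi2 had 1 read in all libraries, is annotated as the non-coding gene Gm29254 and was not used. All 5 slit genes had overlapping groups, and 4 of the 5 estimates were below 0.

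Of the genes for the actin cytoskeleton and the podocyte surface, Myo1e had the lowest p of all members. It encodes a class I myosin that is needed for foot process shape. Myo1e (ENSMUSG00000032220, chr9:70207350-70399766) was at 76.9, 74.1 and 79.9 CPM in Hes1 cKO 1 to 3 and at 66.8, 61.3, 62.8 and 65.8 CPM in control 1 to 4. The lowest mutant thus lay above the highest control, and both groups were tight. Mutants averaged 77.0 ± 2.90 CPM (SD, n = 3) and controls 64.2 ± 2.53 CPM (SD, n = 4). The log2 fold change was 0.26 (SE 0.07, 95% interval 0.10 to 0.42) or 1.20-fold. The unadjusted p of edgeR was 0.00492 and the adjusted p 0.497. An exact two-sided permutation test, run for every member, gave Myo1e a p of 0.0286, the smallest that 35 divisions into 3 and 4 libraries allow. Groups that stand apart put this p at or near its limit, so it is no separate support. Myo1e was at an unadjusted p under 0.05 in all 14 alternative analyses and was called in none of them, with adjusted p-values from 0.290 (DESeq2) to 0.952 (edgeR without Hes1 cKO 2).

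Rhpn1 (ENSMUSG00000022580), which podocytes need for an ordered actin cytoskeleton, was lower in value. It was found at 30.2, 22.1 and 25.8 CPM in Hes1 cKO 1 to 3 against 37.0, 30.4, 33.0 and 28.9 CPM in control 1 to 4. The groups overlapped only through Hes1 cKO 1 and control 4. The log2 fold change was -0.31 (95% interval -0.61 to -0.02, edgeR adjusted p 0.798), and the unadjusted p of 0.0398 passed 0.05 in 9 of the 14 alternatives.

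Synpo (ENSMUSG00000043079), which encodes the actin-bundling protein synaptopodin of foot processes, was at 118, 115 and 98.1 CPM in Hes1 cKO 1 to 3 and at 125, 101, 99.6 and 105 CPM in control 1 to 4. These ranges nearly coincide, with a log2 fold change of 0.04 (95% interval -0.20 to 0.28, edgeR adjusted p 0.992). Podxl, the sialylated surface protein that keeps foot processes apart, was at 243 to 288 CPM against 261 to 313 CPM (log2 fold change -0.15, edgeR adjusted p 0.942). Podxl is also made by endothelium, as is the intermediate filament gene Nes, which was at 39.5 to 47.7 CPM against 39.8 to 56.8 CPM (log2 fold change -0.15, edgeR adjusted p 0.962). Actn4, an actin cross-linker of most epithelia, was at 677 to 744 CPM against 601 to 734 CPM (log2 fold change 0.13, edgeR adjusted p 0.942). For Inf2, a formin that regulates actin filaments, the range was 18.1 to 22.1 CPM against 16.1 to 21.2 CPM (log2 fold change 0.15, edgeR adjusted p 0.959). Clic5, whose product acts with ezrin in podocytes and endothelium, was at 150.0 to 160.3 CPM against 134 to 175 CPM, with means of 154 CPM in both groups. Of these 8 genes 5 were above 0 and 3 below.

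**Figure D2:**
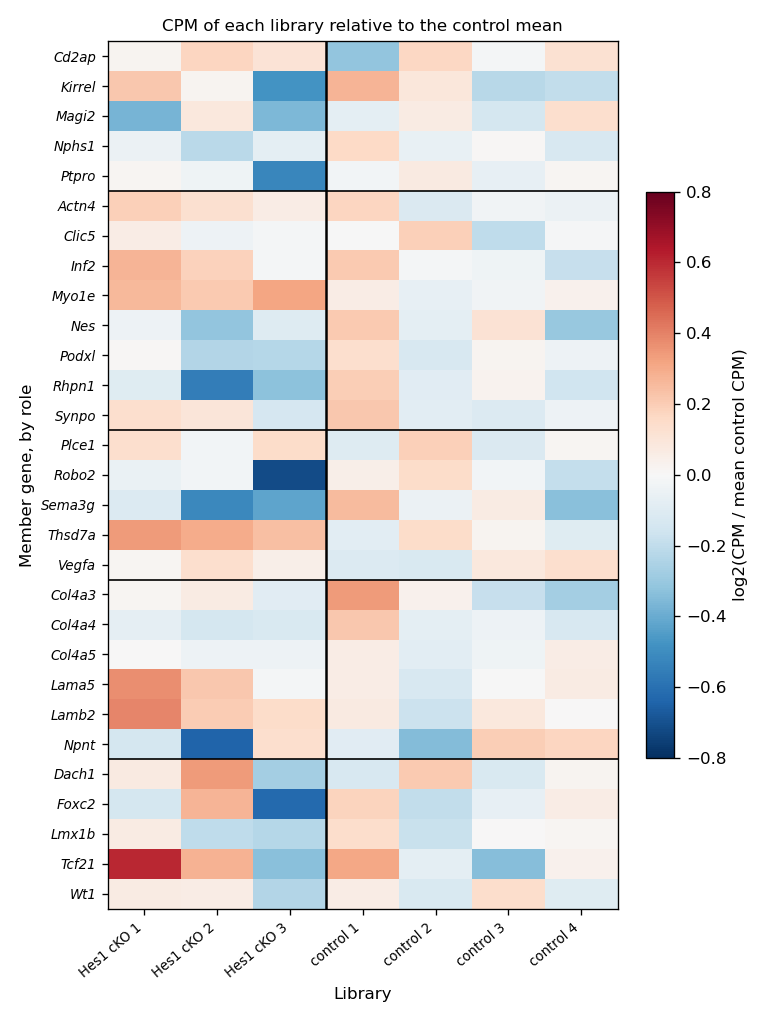
Each library (x axis) against the mean of the 4 controls for the 29 tested genes (y axis, in blocks by role), as log2 of the CPM ratio, red above and blue below. Hes1 cKO 3 is blue for most slit diaphragm and transcription factor genes, control 1 is red for many genes, and Myo1e, Thsd7a and Lamb2 are red in all 3 Hes1 cKO libraries.

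The signalling members were led in size by Sema3g and Thsd7a, in opposite directions. Thsd7a (ENSMUSG00000032625), a foot process membrane protein that is a target of autoantibodies in membranous nephropathy, was at 20.5, 19.8 and 19.1 CPM in Hes1 cKO 1 to 3 and at 15.3, 17.8, 16.4 and 15.1 CPM in control 1 to 4. No control reached the lowest mutant. Thsd7a had a log2 fold change of 0.29 (SE 0.10, 95% interval 0.07 to 0.52), an unadjusted p of 0.0167 and an adjusted p of 0.693 by edgeR, and an exact permutation p of 0.0571. Sema3g (ENSMUSG00000021904), a secreted class 3 semaphorin made by podocytes and arterial endothelium, was at 94.5, 71.1 and 76.0 CPM in Hes1 cKO 1 to 3. In control 1 to 4 it was at 121, 98.5, 106 and 80.8 CPM. Only control 4 fell among the mutants. For Sema3g the log2 fold change was -0.34 (SE 0.15, 95% interval -0.67 to -0.01), with an unadjusted p of 0.0469 and an adjusted p of 0.831 by edgeR. Its unadjusted p passed 0.05 in 8 of the 14 alternatives.

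Robo2, a Slit receptor that acts on nephrin and actin, was at 12.6 and 12.9 CPM in Hes1 cKO 1 and 2 but at 7.94 CPM in Hes1 cKO 3, against 11.4 to 14.5 CPM in control (log2 fold change -0.23, edgeR adjusted p 0.953). Without Hes1 cKO 3 its log2 fold change was -0.04. Vegfa, the endothelial growth factor, which tubule cells make too, was at 274 to 298 CPM against 249 to 297 CPM (log2 fold change 0.07, edgeR adjusted p 0.975). Plce1, a phospholipase C that podocytes need in development, was at 13.3 to 14.9 CPM against 12.5 to 15.4 CPM (log2 fold change 0.09, edgeR adjusted p 0.975). The calcium channel gene Trpc6 did not pass the filter on low counts: it had 10, 6 and 9 reads in Hes1 cKO 1 to 3 and 7, 6, 6 and 2 reads in control 1 to 4. With no filter edgeR gave Trpc6 a log2 fold change of 0.62 and made no call. What size of difference could be detected at 2 to 10 reads per library was not tested.

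Receptors and ligands that act with these members were read from a further list of 14 genes, all tested. Of these 0 were called by edgeR, 0 were at an unadjusted p under 0.05, and their median log2 fold change was -0.01. The VEGF receptor genes Kdr and Flt1, which mark endothelium, differed by less than the spread between libraries, and were the 2 nearest to 0 of the 7 endothelial markers. Kdr averaged 54.3 ± 1.93 CPM over the mutants (SD, n = 3) and 54.7 ± 4.26 CPM over the controls (SD, n = 4). Flt1 averaged 50.2 ± 7.25 and 49.9 ± 1.96 CPM. The Robo ligand gene Slit2 was at 74.2 ± 7.28 CPM against 68.1 ± 10.7 CPM (log2 fold change 0.12, edgeR adjusted p 0.974).

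In the basement membrane, Lamb2 was the member whose groups stood apart. Lamb2 (ENSMUSG00000052911, chr9:108479736-108490530) encodes the beta-2 chain of laminin-521, which replaces the beta-1 chain as glomeruli mature. It was at 164, 144 and 139 CPM in Hes1 cKO 1 to 3 and at 131, 111, 132 and 125 CPM in control 1 to 4. All mutants lay above all controls. Lamb2 had a log2 fold change of 0.25 (SE 0.10, 95% interval 0.04 to 0.47), an unadjusted p of 0.0271 and an adjusted p of 0.737 by edgeR, and an exact permutation p of 0.0286, the smallest possible. Lama5, the alpha chain of the same trimer, was at 239, 215 and 183 CPM against 193, 169, 185 and 194 CPM. Hes1 cKO 1 and 2 exceeded all controls and Hes1 cKO 3 did not (log2 fold change 0.20, edgeR adjusted p 0.921). Lamc1, the gamma chain, averaged 128 ± 9.53 (SD, n = 3) and 128 ± 7.58 (SD, n = 4) CPM and had a log2 fold change of -0.00. Lamb1, the chain Lamb2 replaces, was at 264 ± 25.5 CPM against 279 ± 8.40 CPM (log2 fold change -0.08, edgeR adjusted p 0.974). Per kb of exon, the ratio of Lamb2 to Lamb1 was 1.01, 0.812 and 0.951 in Hes1 cKO 1 to 3 and 0.758, 0.645, 0.753 and 0.765 in control 1 to 4. This ratio was computed after the values of Lamb2 were known, and it was not tested. All these laminin genes are also made by tubules and vessels, so whole-kidney levels do not isolate the glomerular membrane.

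Col4a3 and Col4a4 lie head to head on chromosome 1, with the 71 bases printed above between their annotated starts. With Col4a5 they encode the collagen network of the mature filter, which is mutated in Alport syndrome. Col4a3 was at 356, 369 and 331 CPM in Hes1 cKO 1 to 3 and at 446, 362, 310.2 and 292 CPM in control 1 to 4. The mutants lay inside the control range, and the log2 fold change was -0.00 (95% interval -0.32 to 0.32). Col4a4 was at 392, 374 and 380.3 CPM against 480.1, 391, 402 and 378 CPM (log2 fold change -0.11, edgeR adjusted p 0.962). Control 1 was highest for both. Col4a5, on the X chromosome, was the steadiest of the collagens, at 117 to 121 CPM against 113 to 125 CPM (log2 fold change -0.02, 95% interval -0.20 to 0.15). Per kb of exon the ratio of Col4a3 to Col4a4 was 0.981 ± 0.0646 over the mutants (SD, n = 3) and 0.904 ± 0.0951 over the controls (SD, n = 4), so the 2 genes were close to equal in level. The ratio of Col4a5 to Col4a4 was 0.488 ± 0.00545 and 0.462 ± 0.0451. Npnt, which encodes nephronectin, an adhesive basement membrane protein that is also made by tubule epithelium, varied most among the mutants of this group, while Col4a3 varied most among the controls. Npnt ranged from 223 CPM in Hes1 cKO 2 to 380.4 CPM in Hes1 cKO 3, against 273 to 398 CPM in control (log2 fold change -0.18, edgeR adjusted p 0.974). Of the 6 basement membrane members, 2 were above 0 and 4 below, of which Col4a3 moved to 0.017 when scaled by total counts.

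The transcription factors that set podocyte identity ranged in control from 1.44 (Lmx1b) to 7.82 (Tcf21) CPM per kb of exon. Wt1 (ENSMUSG00000016458) was at 13.0, 13.0 and 10.6 CPM in Hes1 cKO 1 to 3 and at 13.0, 11.4, 13.7 and 11.6 CPM in control 1 to 4. Only Hes1 cKO 3 lay outside the control range (log2 fold change -0.03, 95% interval -0.31 to 0.25, edgeR adjusted p 0.995). Lmx1b (ENSMUSG00000038765), the nail-patella gene, was at 7.35, 6.08 and 6.00 CPM against 7.74, 6.20, 7.02 and 7.10 CPM. The groups overlapped, with a log2 fold change of -0.11 (95% interval -0.45 to 0.23, edgeR adjusted p 0.975). Foxc2 (ENSMUSG00000046714), a forkhead factor of developing podocytes, was at 11.6, 15.4 and 8.29 CPM against 14.5, 11.1, 12.2 and 13.3 CPM. The mutants held both the highest and the lowest value (log2 fold change -0.11, 95% interval -0.56 to 0.33, edgeR adjusted p 0.984). Tcf21, a factor of podocytes and stroma, was at 27.9, 22.3 and 14.6 CPM against 14.5 to 22.7 CPM, with the widest interval of all members (-0.25 to 0.72). Dach1, which podocytes share with distal tubules, was at 24.3 to 37.1 CPM against 26.8 to 33.8 CPM (log2 fold change 0.07, edgeR adjusted p 0.988). Of the 5 factors 2 were above 0 and 3 below.

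Of the 6 defining genes, 1 (Synpo) was above 0 and 5 were below. Their median was -0.11 on the log2 scale, and 0 were at an unadjusted p under 0.05 by edgeR. Their summed level, to which Synpo contributes most, was 212, 207 and 176 CPM in Hes1 cKO 1 to 3 and 227, 193, 195 and 197 CPM in control 1 to 4. Hes1 cKO 3 was lowest and control 1 highest, with the other 5 libraries between 193 and 212 CPM. Averages were 198 ± 19.9 CPM over the mutants (SD, n = 3) and 203 ± 16.0 CPM over the controls (SD, n = 4), and their ratio was 0.978. The ratio was 1.03 without Hes1 cKO 3 and 1.02 without control 1. Of the 6 genes 5 were at their lowest in Hes1 cKO 3, which is also the only mutant with high Xist. Control 3 and control 4, with high Xist too, had podocyte sums of 195 and 197 CPM. As Hes1 cKO 3 is the only high-Xist mutant, sex and library cannot be told apart there, and no link of Xist to these sums was tested. Over all 29 tested members the lowest library was Hes1 cKO 3 for 8 genes, Hes1 cKO 2 for 7 and control 2 for 6. Control 1 was the highest for 11 and Hes1 cKO 1 for 6. In Hes1 cKO 3 the summed endothelial markers were lowest as well, at 326 CPM against 421 to 515 CPM in the other libraries. Plvap weighs most in that sum in control, with 90.7 CPM for Hes1 cKO 3 and 152 to 222 CPM elsewhere. Every other endothelial marker except Kdr was also lowest in that library. Kdr, with 55.3 CPM, lay inside the 51.3 to 60.9 CPM of the remaining libraries. The endothelial list is not limited to the glomerulus, and whether this library held less glomerular RNA was not tested. Without Hes1 cKO 3 the log2 fold changes of Wt1 and Foxc2 were above 0 (0.06 and 0.08), while those of Nphs1 (-0.13), Lmx1b (-0.06) and Ptpro (-0.01) were below.

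**Figure D3:**
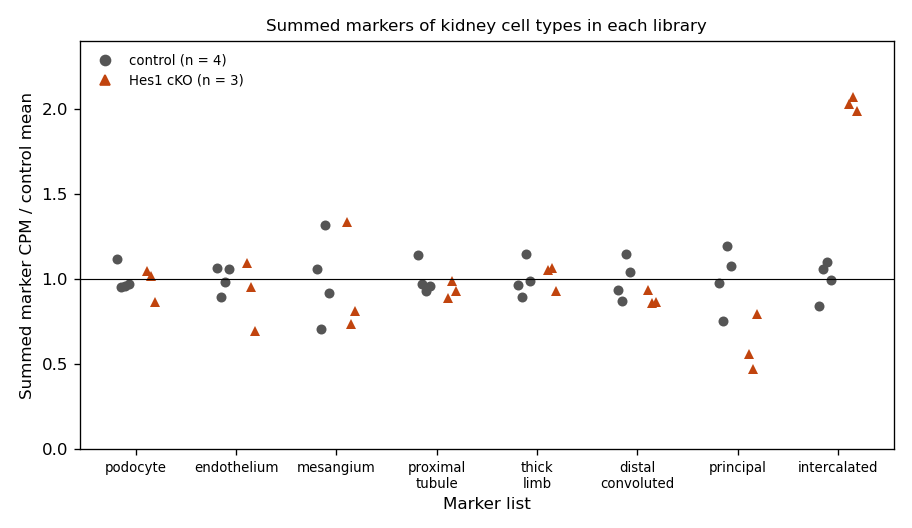
Summed CPM of the markers of 8 kidney cell types (x axis), each library divided by the control mean (y axis, from 0), with circles for control and triangles for Hes1 cKO. The podocyte sums of the groups overlap around 1, while the intercalated cell sums of Hes1 cKO lie near 2, above all controls.

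For scale, summed markers of the collecting duct were farther from 1. The 4 intercalated cell markers had a ratio of 2.03 (668 to 694 CPM over the mutants, 282 to 369.9 CPM over the controls), with no overlap, and edgeR called 3 of them as higher. The 4 principal cell markers had a ratio of 0.609, with overlapping groups and 0 calls, though all 3 that were tested were lower at an unadjusted p under 0.05. The ratios were 0.912 for 7 endothelial and 0.961 for 6 mesangial and perivascular markers, and both overlapped. These lists are not limited to cells of the glomerulus. In control Plvap, at 188 CPM, was the largest part of the endothelial sum of 471 CPM. Ren1, at 141 CPM, was the largest part of the mesangial and perivascular sum of 242 CPM. Of the 7 endothelial markers, 1 was above 0 and 6 below, at a median of -0.10 on the log2 scale, and 0 were called. Among them Emcn, the endomucin gene, was the 1 gene at an unadjusted p under 0.05: it was at 26.8, 22.9 and 19.1 CPM in Hes1 cKO 1 to 3 and at 33.0, 28.8, 29.6 and 35.8 CPM in control 1 to 4. All mutants lay below all controls, with a log2 fold change of -0.47 (SE 0.13) and an edgeR adjusted p of 0.512, which is no call. Immune markers were low in all libraries, with a sum of 3.56 to 5.61 CPM over the 3 genes used.

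Other genes of the filter were read from lists that hold no member. Of 22 further slit diaphragm, polarity and adhesion genes 21 were tested. Among the 21, 17 were above 0 (48.4% of all tested genes were) and 4 below, with a median log2 fold change of 0.08. Of these 0 were called and 0 were at an unadjusted p under 0.05. Itga3, the integrin subunit that binds laminin-521, had all mutants (124 to 142 CPM) above all controls (94.8 to 122 CPM). Its log2 fold change was 0.23, with an edgeR adjusted p of 0.850. Of all tested genes, 3.71% had groups apart in this direction and 3.29% in the other. Of 10 other genes known from podocytes, 6 were above 0 and 4 below, and 0 were called. Bmp7, which podocytes and tubules secrete, was at 137, 144 and 134 CPM in Hes1 cKO 1 to 3 and at 126, 113, 112 and 126 CPM in control 1 to 4. The groups did not overlap, at a log2 fold change of 0.21, an unadjusted p of 0.0276 and an adjusted p of 0.738 by edgeR. Tdrd5 stood on the other side, at 1.16, 1.93 and 2.18 CPM against 3.44, 2.86, 2.80 and 3.28 CPM. Its estimate, -0.82 on the log2 scale (SE 0.26, edgeR unadjusted p 0.0107, adjusted p 0.622), rests on 22 to 60 reads per library. Of 11 further basement membrane genes 4 were above 0 and 7 below, and 0 were called. Col18a1, which gives rise to endostatin, was at 491, 455 and 452 CPM against 354, 334, 448 and 361 CPM. Its groups were just apart through control 3 (log2 fold change 0.32, edgeR unadjusted p 0.0181, adjusted p 0.693). Col4a1 and Col4a2, the collagen chains of all vascular and tubular basement membranes, had log2 fold changes of -0.02 and 0.05.

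Levels of the 30 genes can be compared with each other only per exon length, since a longer RNA gives more reads. In control, CPM per kb of exon spanned from 0.0571 ± 0.0248 (SD, n = 4) for Trpc6 to 106 ± 9.41 for Actn4. Actn4, Npnt (69.1 ± 11.8), Vegfa (63.3 ± 5.75) and Podxl (52.0 ± 3.94) led, and all of them are made by other kidney cells as well. The collagen genes Col4a4 (38.9 ± 4.32) and Col4a3 (35.4 ± 6.92) came next, with overlapping spreads. Within control 1 to 4 the ratio of Col4a3 to Col4a4 was 0.989, 0.984, 0.821 and 0.823, below 1 in each, and it was not tested. Among the 6 defining genes the order was Synpo (11.3 ± 1.23), Nphs1 (5.24 ± 0.452), Foxc2 (4.68 ± 0.525), Ptpro (4.23 ± 0.167), Wt1 (2.01 ± 0.176) and Lmx1b (1.44 ± 0.130). In that order the control values of Nphs1 and Foxc2 overlapped, as did those of Foxc2 and Ptpro. In Hes1 cKO the same genes were at 11.6 ± 1.14, 4.86 ± 0.296, 4.31 ± 1.30, 3.78 ± 0.730, 1.97 ± 0.224 and 1.33 ± 0.155 CPM per kb (SD, n = 3). These means kept the order, though not every single mutant library did. The spread between control libraries was modest: the coefficient of variation of CPM ran from 3.95% (Myo1e and Ptpro) to 19.6% (Col4a3) over the 29 tested genes, with a median of 10.1%.

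**Figure D4:**
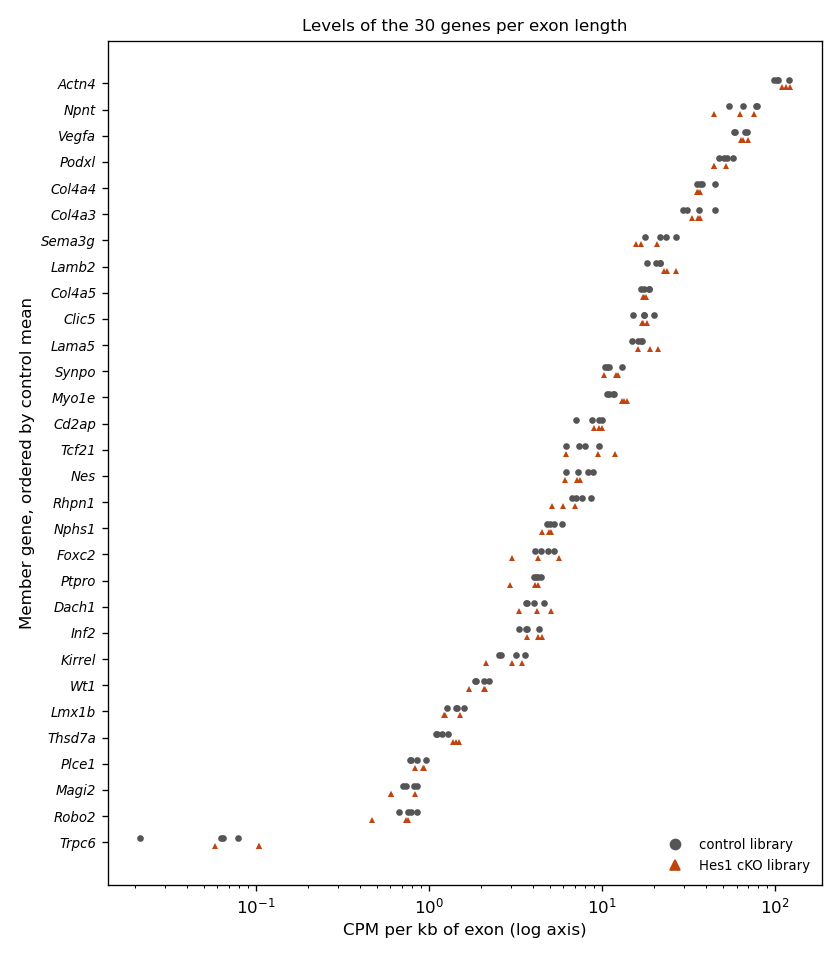
CPM per kb of exon (x axis, log scale) for all 30 genes (y axis, ordered by the control mean), with a circle for each control and a triangle for each Hes1 cKO library. Levels span from below 0.1 for Trpc6 to above 100 for Actn4, and the libraries of both groups overlap for all genes but Myo1e, Thsd7a and Lamb2. Trpc6 has the widest spread, from 0.109 to 0.529 CPM before division by exon length.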

How the data were processed

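The authors deposited 2 tables of whole-number read counts per gene, without normalization, per the labels and the values. The submitters' processing notes name FastQC, STAR and DESeq2 and the builds mm10 and GRCm38. Their versions, the annotation and the strand setting are not given in these sources. Columns of the first table are named MT (3, Hes1 cKO) or WT (4, control). The other table's 9 columns show no genotype and were not used.

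Genes were filtered with filterByExpr (minimum count 10), scaled by TMM and tested by the quasi-likelihood test of edgeR 4.0.16 (R 4.3.3), Hes1 cKO against control, with no covariate and Benjamini-Hochberg adjustment over 15615 genes. Standard errors and 95% intervals come from the F statistic. The exact two-sided permutation test used log2(CPM + 1) over 35 divisions. Alternatives used DESeq2 1.42.0, limma 3.58.1, other scalings and filters, an Xist covariate and each library left out. The code was tested on simulated data. Libraries of a group were compared in pairs, and all pairs differed by more than sampling noise (chi-square over degrees of freedom 11.8 to 41.0). Counts carry no molecular identifiers. Exon lengths and positions come from GENCODE M21 (GRCm38), which held 99.7% of the gene identifiers. Promoters come from RefSeq (GRCm38.p6).

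The members and lists were chosen with earlier results of these data known. All 30 members are named. Values in every library are given for the 6 defining genes, for members at an unadjusted p under 0.05 and for those whose groups do not overlap. Genes of the other filter and endothelial lists are named at an unadjusted p under 0.05 or without overlap; the other marker lists are given as sums and counts. A few more are named as partners of a member, chosen after their values were seen.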

Additional observations from a re-analysis of the deposited data

Results flagged for a closer look

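The summed level of the 6 podocyte-defining genes stood apart in control 1. It was 227 CPM there, with 193, 195 and 197 CPM in control 2 to 4. The gap above the nearest of them was 0.889 of the whole control range, past Dixon's 95% critical value for 4 samples. Control groups were examined in this way for 29 genes and this sum, 30 in all, and chance alone puts about 1 in 20 groups past the limit. No single gene passed it. With 3 libraries, the mutants were not examined. The ratio of Hes1 cKO to control for the sum was 0.978 with control 1 and 1.02 without it.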

How the results depend on the processing

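Of the 29 tested members 0 were called in any of the 14 alternatives, as reported, and the other filter lists also gave 0 calls in each. Hes1 stayed lower and called in all 14. The number of members at an unadjusted p under 0.05 was 5, 3 when scaled by total counts, and 6 with the Xist covariate, which adds Robo2 (log2 fold change -0.31); leaving out a library gave 3 to 5, with 3 without Hes1 cKO 1, control 2 or control 3. Over all genes, edgeR called 53, DESeq2 130, and edgeR without a low-count filter 102; leaving out a library gave 25 (without Hes1 cKO 2) to 47, with 27 without Hes1 cKO 1. The median log2 fold change of the members was -0.02 and lay between -0.059 and 0.055 when a library was left out; it was above 0 without Hes1 cKO 3 (0.055) and without control 1 (0.0016). The summed podocyte ratio was computed again only with the other scalings and with each library left out, and stayed between 0.942 and 1.03. Of the 29 members, 21 kept the sign of their estimate throughout. The other 8 changed sign: Clic5 was at -0.0016 without a low-count filter and -0.016 with the Xist covariate, and Col4a3 at 0.017 by total counts and 0.015 by limma-voom. When a library was left out, log2 fold changes ran from -0.060 to 0.071 for Clic5, -0.082 to 0.13 for Col4a3, -0.21 to 0.12 for Kirrel, -0.016 to 0.12 for Synpo, -0.37 to 0.0016 for Npnt, -0.080 to 0.062 for Wt1, -0.36 to 0.080 for Foxc2 and -0.088 to 0.21 for Dach1. No paired analysis was possible because the columns carry no replicate numbers of the titles. With 3 against 4 libraries, 95% intervals reached as far as 0.72 from 0, so the precision differs between members.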

Other observations

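Among the adhesion genes, Ilk, which encodes a kinase scaffold at integrin contacts and is made by most cells, had 4 reads in all 7 libraries together. In GENCODE M21, 89.7% of its exonic bases are shared with Rrp8 and Taf10. Tagln, a smooth muscle gene of the perivascular list, had 14 reads in all, and 67.9% of its exonic bases are shared with Pcsk7 and Gm48529. The largest such share with a single other gene among the 30 filter genes was 9.02%, for Nphs1. How the deposited counts treated reads that overlap several genes was not tested.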
